A study of Homo sapiens with 16 samples.

Results

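The genes described here are 53 components of the machinery that brings new secretory and membrane proteins into the endoplasmic reticulum (ER) and attaches N-linked glycans to them. They were listed by function, as translocon, signal recognition, signal peptidase, oligosaccharyltransferase, glycan donor and glucosidase genes, and each was matched to 1 of the 63677 Ensembl gene IDs counted in a pair of melanoma lines. All 53 passed the filter on low counts that left 20280 genes for testing. UACC62R is the vemurafenib-resistant variant, which the label texts of the 0 h libraries describe as selected in the BRAF inhibitor at 2 uM over 2 months and cultured in it from then on. UACC62P is the parental line. Both lines were treated for 2, 6 or 24 h with CCG-222740 at 10 uM, known to block transcription driven by MRTF and SRF, or were left untreated, which the labels give as 0 h. Each of the 8 groups had 2 libraries.

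Proteins that carry a signal sequence are met during synthesis by the signal recognition particle, which docks with its receptor on the ER and hands the ribosome to the SEC61 channel. SEC62, SEC63, the TRAM proteins and the translocon-associated protein (TRAP) complex assist entry, and signal peptidase removes the signal sequence. In parallel, the ALG enzymes build an oligosaccharide on the lipid dolichol, and oligosaccharyltransferase moves it onto asparagines of the entering chain. Glucosidases then trim the glucoses, and UGGT enzymes add a glucose back to misfolded glycoproteins, which returns them to the calnexin cycle. In pigment cells and melanomas the route serves receptors, adhesion proteins and the enzymes of melanin synthesis.

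The 16 libraries held 25.9 to 33.3 M reads in genes. The library labelled UACC62P 2 h replicate 1 stood apart and was left out by the rule that chose the genes. In it SOX10, a melanocyte lineage factor, had 18.1 CPM (read counts relative to the TMM-scaled library size, here with all 16 libraries scaled together), against 19.9 to 30.1 CPM in UACC62R and 752 to 913 CPM in the other UACC62P libraries. With that library included the common dispersion was 0.0622, against 0.00985 in the 15 libraries used here, and their counts of called genes are given beside the results below. The sum of 8 melanocyte lineage markers was 73.8 to 84.5 CPM in UACC62R and 1497 to 1848 CPM in UACC62P. In UACC62R 5 of the 8 stayed below 1 CPM in every library, and in UACC62P none did. Of the 8, TYRP1 was low in both lines (0.385 to 0.890 CPM in UACC62R and 0.273 to 1.19 CPM in UACC62P). PMEL had 1.26 to 3.40 CPM in UACC62P. The part of this difference in lineage markers in the differences between the lines was not tested. For other cell types, the sum of 5 epithelial genes was 0.188 to 0.737 CPM in UACC62R and 7.32 to 11.9 CPM in UACC62P. Of these CDH1 was at 0 in every library, while ESRP1 had 7.25 to 11.9 CPM in UACC62P and 0 to 0.513 CPM in UACC62R. The sum of 4 endothelial genes was 0.657 to 1.92 CPM in UACC62R and 3.19 to 4.74 CPM in UACC62P. PECAM1 was at 0, KDR had 2.53 to 3.89 CPM in UACC62P, and VWF had 0.626 to 1.56 CPM in UACC62R. The sum of 5 blood genes was 0.256 to 0.877 and 0.526 to 1.11 CPM. CD3E and HBB were at 0, and PTPRC had 0.465 to 1.11 CPM in UACC62P. The 0 h libraries are labelled as having no treatment, not vehicle, and the texts on their growth and handling differ from those of the treated libraries, which do not say whether UACC62R stayed in vemurafenib during the treatment, so the compound and any difference in handling cannot be told apart. Whether replicates came from separate cultures is not in the labels, and the p-values cover the spread between libraries alone, which may be technical. In bulk RNA a change in the mix of cells and a change in RNA per cell cannot be told apart.

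After 24 h in CCG-222740, 23 of these 53 genes were called higher in both lines, among them the TRAP subunits SSR1, SSR2 and SSR3, TRAM1, SEC63, ALG5 and ALG2, while the glucosidase gene MOGS was lower. In UACC62R, 34 of the 53 genes rose and 1 fell at 24 h against 0 h, where 6.48% of all tested genes rose and 8.23% fell (edgeR's quasi-likelihood test, Benjamini-Hochberg adjusted p under 0.05). In UACC62P, 24 rose and 1 fell, where 2.19% of all tested genes rose and 1.65% fell. The median log2 fold change of the 53 genes was 0.40 in UACC62R and 0.34 in UACC62P, beside medians over all tested genes of 0.01 and 0. In each line 46 of the 53 values lay above 0, beside 50.6% of all tested genes in UACC62R and 49.2% in UACC62P. The summed level of the 53 genes was 14496 and 14491 CPM at 24 h, against 9738 and 10140 CPM at 0 h, in UACC62R. In UACC62P the sum was 13891 and 13533 CPM at 24 h, against 10390 and 9881 CPM at 0 h. The groups did not overlap in either line. Abundant genes weigh most in these sums, SEC61A1 and RPN1 above all, so the sums do not describe each of the 53 genes. With the left-out library in the fit, 17 genes rose and 1 fell in UACC62R, and 5 rose and 1 fell in UACC62P.

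**Figure D1:**
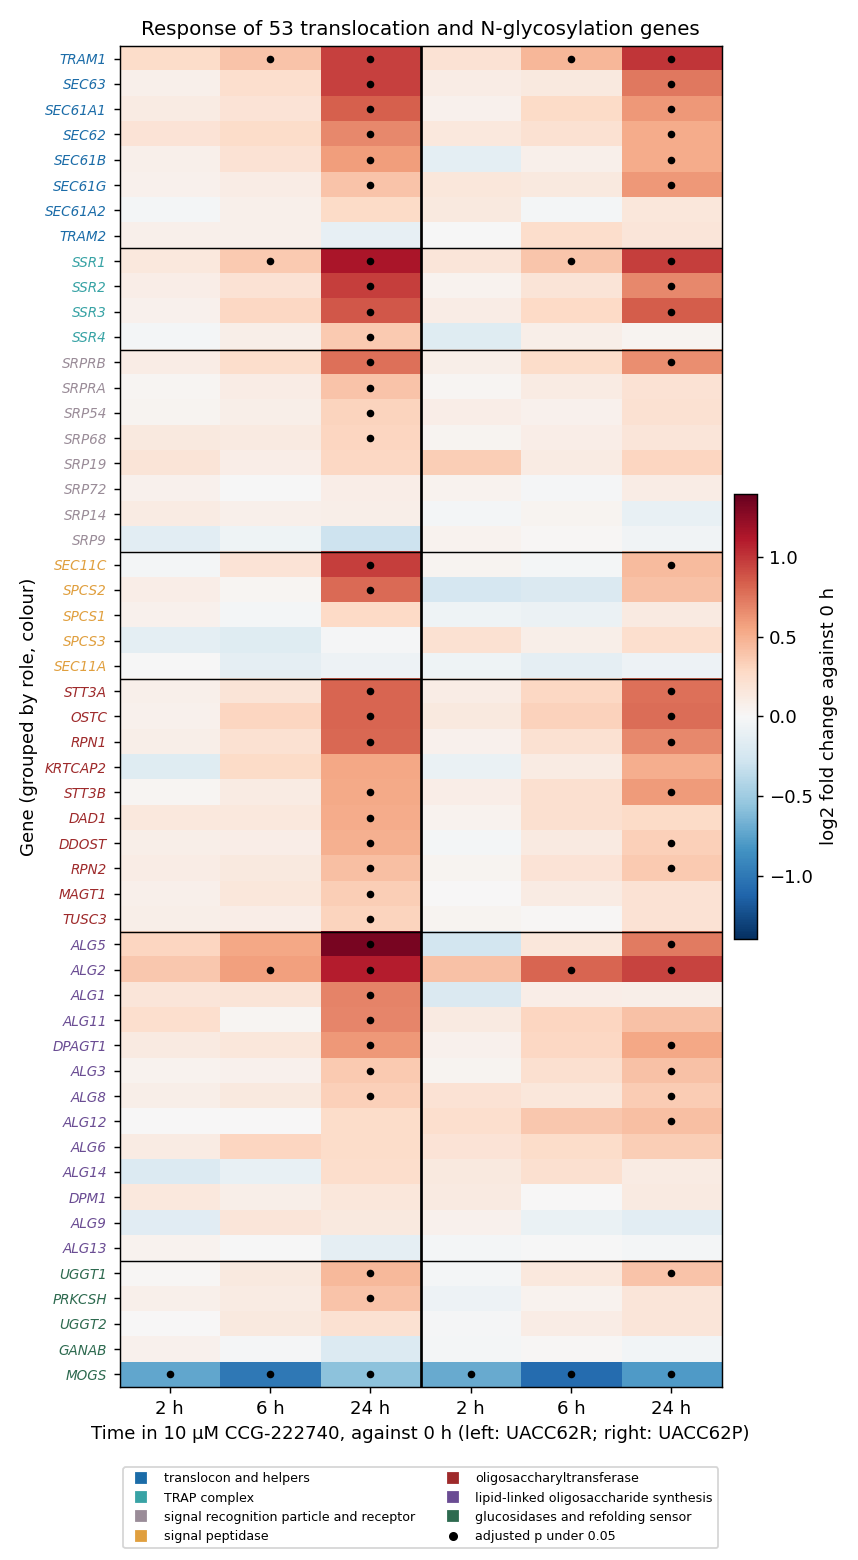
log2 fold change of each of the 53 genes at 2, 6 and 24 h against 0 h (colour, red higher and blue lower than 0 h), UACC62R in the left block and UACC62P in the right, with genes in rows grouped by role and a dot where the adjusted p was under 0.05. The 24 h columns hold 34 higher calls in UACC62R and 24 in UACC62P, the 2 h columns none, and MOGS is the gene with a lower call at every time in both lines.

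The gene with the largest fold change in UACC62R was ALG5, which makes the dolichol-linked glucose that the last steps of donor assembly use. It had 37.2 and 38.8 CPM at 24 h, against 13.2 and 17.1 CPM at 0 h, in UACC62R, a log2 fold change of 1.33 ± 0.12 (SE, n = 2 libraries each; edgeR adjusted p = 1.3e-05). In UACC62P it had 31.0 and 35.7 CPM at 24 h, against 19.9 and 20.5 CPM at 0 h, a log2 fold change of 0.72 ± 0.12 (edgeR adjusted p = 0.0038). All 24 h libraries lay above all 0 h libraries, and without UACC62P 24 h replicate 2 the call in UACC62P was lost. SSR1, the alpha subunit of TRAP, had 599 and 579.5 CPM at 24 h, against 255 and 278 CPM at 0 h, in UACC62R. In UACC62P it had 552 and 533 CPM at 24 h, against 278 CPM in each 0 h library. The lines differed by -0.06 ± 0.07 on the log2 scale at 0 h, and the log2 fold change at 24 h was 1.15 ± 0.07 in UACC62R (edgeR adjusted p = 6.8e-07) and 0.97 ± 0.07 in UACC62P (edgeR adjusted p = 4.6e-06). ALG2, which adds mannoses to the growing donor on the cytosolic face, had 103 and 112 CPM at 24 h, against 46.7 and 53.3 CPM at 0 h, in UACC62R. In UACC62P it had 75.1 and 84.4 CPM at 24 h, against 40.2 and 42.4 CPM at 0 h. Its log2 fold changes were 1.10 ± 0.11 in UACC62R and 0.95 ± 0.11 in UACC62P (edgeR adjusted p = 2.3e-05 and 0.00026).

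TRAM1, a membrane protein beside the channel, led in UACC62P. It had 323 and 333 CPM at 24 h, against 158 and 179 CPM at 0 h, in UACC62R, and 210.2 and 219 CPM at 24 h, against 109.6 and 105 CPM at 0 h, in UACC62P. The log2 fold changes were 0.96 ± 0.08 and 1.00 ± 0.08 (edgeR adjusted p = 4.4e-06 in UACC62R and 9.5e-06 in UACC62P), from an untreated level that was higher in UACC62R. SEC11C, a catalytic subunit of signal peptidase, had 38.5 and 40.7 CPM at 24 h, against 20.9 and 19.8 CPM at 0 h, in UACC62R, and 42.7 and 46.9 CPM at 24 h, against 32.1 and 33.8 CPM at 0 h, in UACC62P. Its log2 fold changes were 0.96 ± 0.10 in UACC62R and 0.44 ± 0.10 in UACC62P (edgeR adjusted p = 2.7e-05 and 0.020), and the call in UACC62P was lost whichever of its 4 libraries was left out. SSR3, another TRAP subunit, had 512 and 603 CPM at 24 h, against 276 and 336 CPM at 0 h, in UACC62R. In UACC62P it had 616 and 611 CPM at 24 h, against 334 and 347 CPM at 0 h. The 2 replicates of UACC62R lay further apart than those of UACC62P, and the log2 fold changes were 0.86 ± 0.12 and 0.85 ± 0.12 (edgeR adjusted p = 0.00025 in UACC62R and 0.00094 in UACC62P).

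**Figure D2:**
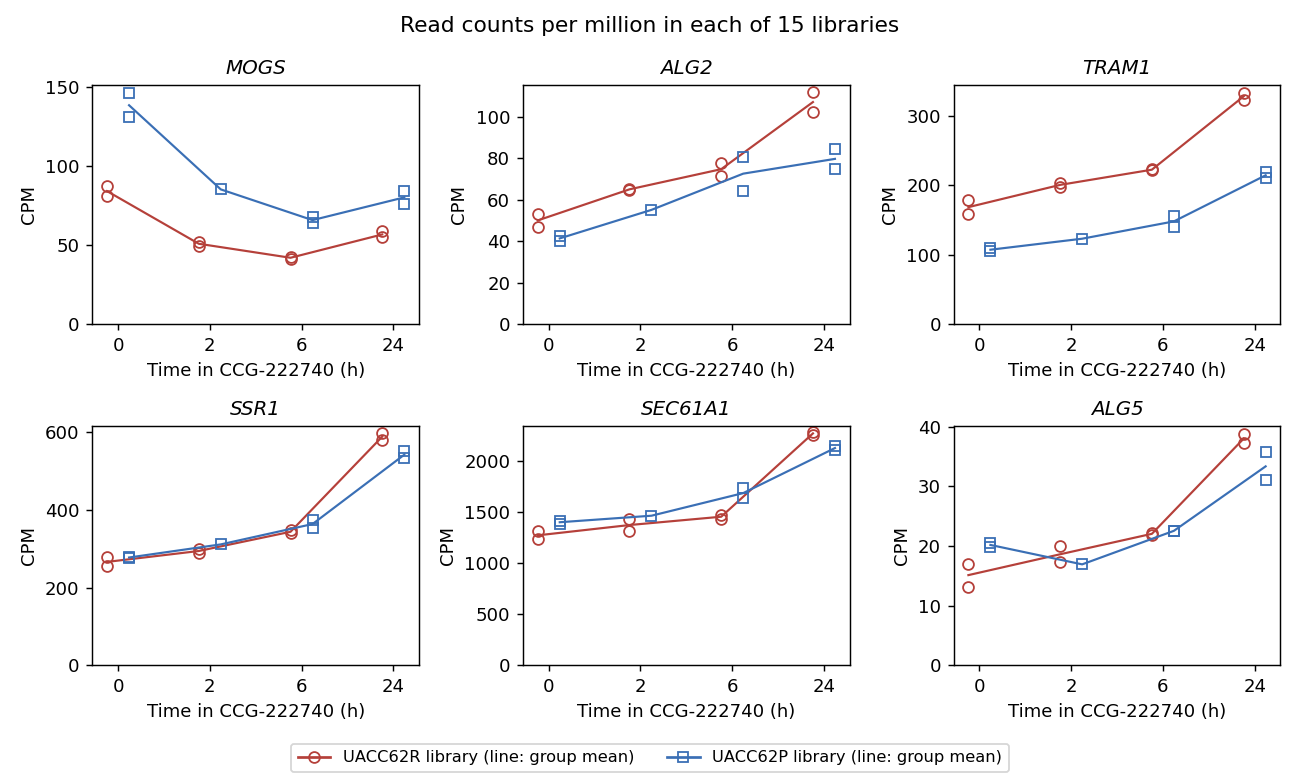
CPM of 6 genes in each of the 15 libraries (points; circles UACC62R, squares UACC62P) against hours in CCG-222740, with lines through group means and the times set at equal distances on the axis. The 24 h libraries lie above the 0 h libraries of their line for ALG2, TRAM1, SSR1, SEC61A1 and ALG5, and below them for MOGS.

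By role, the translocon changed in both lines. Of its 8 genes, 6 rose in each line: the channel subunits SEC61A1, SEC61B and SEC61G, the partners SEC62 and SEC63, and TRAM1. SEC61A1, the pore subunit and the most abundant of the 53 genes, had a log2 fold change of 0.84 in UACC62R and 0.60 in UACC62P. SEC63, which recruits the chaperone BiP to the channel, had 0.96 and 0.73. The other two, SEC61A2 and TRAM2, had 0.26 and -0.11 in UACC62R and 0.16 and 0.17 in UACC62P and were not called. All 4 TRAP genes rose in UACC62R (SSR2 by 0.96 and SSR4 by 0.37 on the log2 scale), and SSR1, SSR2 and SSR3 rose in UACC62P, where SSR4 had a log2 fold change of 0.04.

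Among the 8 genes of the signal recognition particle and its receptor, SRPRA, SRPRB, SRP54 and SRP68 rose in UACC62R and SRPRB rose in UACC62P. SRPRB, the membrane anchor of the receptor, had log2 fold changes of 0.77 ± 0.14 and 0.65 ± 0.14, while those of SRPRA, the receptor GTPase, were 0.40 ± 0.07 and 0.20 ± 0.07. SRP54, which binds the signal sequence, had 0.31 and 0.21. SRP9 and SRP14, which slow elongation, had -0.29 and 0.09 in UACC62R and -0.05 and -0.10 in UACC62P, none of them called. Of the 5 signal peptidase genes, SEC11C and SPCS2 rose in UACC62R and SEC11C rose in UACC62P.

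In oligosaccharyltransferase, 9 of 10 genes rose in UACC62R and 6 in UACC62P. The catalytic subunits STT3A and STT3B, the core subunits RPN1, RPN2 and DDOST, and OSTC, which belongs to the STT3A form of the enzyme, rose in both lines. STT3A, which acts while the chain enters, had log2 fold changes of 0.82 ± 0.07 in UACC62R and 0.78 ± 0.07 in UACC62P. RPN1 had 0.80 ± 0.06 and 0.67 ± 0.06, and OSTC 0.81 ± 0.11 and 0.78 ± 0.11. DAD1, TUSC3 and MAGT1 rose in UACC62R by 0.52, 0.31 and 0.34 on the log2 scale and had 0.26, 0.20 and 0.20 in UACC62P. KRTCAP2, the gene with the fewest reads (56 in its lowest library), had 0.54 ± 0.29 and 0.51 ± 0.29 and was not called.

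Of the 13 genes for donor assembly, 7 rose in UACC62R and 6 in UACC62P. DPAGT1, which starts the donor and is the target of tunicamycin, rose in both lines with log2 fold changes of 0.61 and 0.54, as did ALG2, ALG3, ALG5 and ALG8. ALG1, which adds the first mannose, rose in UACC62R with 48.5 and 46.6 CPM at 24 h, against 28.3 and 30.6 CPM at 0 h. In UACC62P it had 29.8 and 30.6 CPM at 24 h, against 29.1 and 28.0 CPM at 0 h, and its log2 fold change was 0.08 ± 0.11. ALG11 rose in UACC62R (0.68 ± 0.17), and ALG12, a mannosyltransferase of the ER lumen, rose in UACC62P (0.43 ± 0.10). The genes ALG6, ALG9, ALG13, ALG14 and DPM1 were called in neither line. In the last group, UGGT1, the folding sensor, rose in both lines (0.46 and 0.40), and PRKCSH, the regulatory subunit of glucosidase II, rose in UACC62R (0.40, beside 0.16 in UACC62P). GANAB, the catalytic subunit of the same enzyme, had log2 fold changes of -0.19 and -0.03, neither called.

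Calls at 24 h that held in all 4 fits with 1 library of the comparison left out numbered 24 of 35 in UACC62R and 13 of 25 in UACC62P. The 12 genes that held in both lines were SEC61A1, SEC63, TRAM1, SSR1, SSR2, SSR3, STT3A, STT3B, RPN1, OSTC, ALG2 and MOGS. The count in UACC62P fell to 15 without UACC62P 0 h replicate 2 and to 16 without UACC62P 24 h replicate 1. In UACC62R the calls on SEC61G, SSR4, SRP54, SRP68, DAD1, TUSC3, ALG11, ALG3, ALG8, PRKCSH and UGGT1 were lost in at least 1 of those fits. When the replicate number was added as a block, SRP19, SPCS1 and ALG12 were also called higher and SRP9 and GANAB lower in UACC62R. In UACC62P the block added SRP19, SRP54, SRPRA, SPCS2, DAD1, TUSC3, MAGT1 and ALG6 to those called higher.

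MOGS, glucosidase I, which removes the outermost glucose right after transfer, was the only gene of the 53 called at 2 h in either line, and it was lower at every time in both. In UACC62R it had 87.1 and 80.9 CPM at 0 h, 49.4 and 52.0 CPM at 2 h, 41.1 and 42.6 CPM at 6 h, and 54.7 and 58.5 CPM at 24 h. In UACC62P it had 146 and 131 CPM at 0 h, 85.1 CPM in the single 2 h library, 67.5 and 63.8 CPM at 6 h, and 76.0 and 84.1 CPM at 24 h. Every treated library lay below every 0 h library of its line, and the 6 h libraries were the lowest. The log2 fold changes at 2, 6 and 24 h were -0.73 ± 0.09, -1.005 ± 0.09 and -0.57 ± 0.08 in UACC62R (edgeR adjusted p = 0.0024, 4.0e-05 and 0.00054). In UACC62P they were -0.70 ± 0.11, -1.07 ± 0.09 and -0.79 ± 0.08 (edgeR adjusted p = 0.031, 1.8e-05 and 0.00014), with the lone 2 h library assumed to vary like the other groups. The calls at 2 h were lost without UACC62P 0 h replicate 1 or 2 in UACC62P, without UACC62R 2 h replicate 1 in UACC62R, and in both lines with the left-out library in the fit. At 24 h against 6 h MOGS was higher in UACC62R, by 0.44 ± 0.09 on the log2 scale (edgeR adjusted p = 0.0048). In UACC62P the same difference was 0.29 ± 0.08 (edgeR adjusted p = 0.17, and adjusted p = 0.038 with the replicate number as a block). MOGS had been named in earlier work on these data.

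At 2 h edgeR called 0.0493% of all tested genes higher and 0.0247% lower in UACC62R, and 0.0296% higher and 0.0148% lower in UACC62P. It called none of the 53 higher and MOGS lower. At an unadjusted p under 0.05, 4 were higher in UACC62R and 2 in UACC62P, and DESeq2 called none of them higher. With the replicate number as a block, ALG2 was also called at 2 h in UACC62R. At 6 h, 3 genes rose and MOGS fell in each line, where 0.38% of all tested genes rose and 0.286% fell in UACC62R, and 0.848% rose and 0.671% fell in UACC62P. The 3 that rose were the same in both lines: ALG2, TRAM1 and SSR1. ALG2 had 71.7 and 77.9 CPM at 6 h, against 46.7 and 53.3 CPM at 0 h, in UACC62R, and 64.4 and 80.8 CPM at 6 h, against 40.2 and 42.4 CPM at 0 h, in UACC62P. Its log2 fold changes at 6 h were 0.58 ± 0.11 and 0.81 ± 0.11 (edgeR adjusted p = 0.024 in UACC62R and 0.0021 in UACC62P). TRAM1 rose by 0.40 in UACC62R and 0.47 in UACC62P, and SSR1 by 0.37 and 0.39, on the log2 scale. In UACC62R all 3 calls were lost without UACC62R 0 h replicate 1, without either 6 h replicate and in the fit of the compared groups alone, and that on ALG2 was also lost without 0 h replicate 2. In UACC62P the calls on TRAM1 and SSR1 were lost without UACC62P 0 h replicate 2 or 6 h replicate 2, and that on SSR1 also without 0 h replicate 1. With the left-out library in the fit, MOGS was the gene still called at 6 h in each line. With the replicate number as a block, 8 genes rose at 6 h in UACC62R and 15 in UACC62P, with 1 lower in each.

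Between 6 h and 24 h, 28 of the 53 genes rose in UACC62R, where 5.18% of all tested genes rose, and 14 rose in UACC62P, where 0.345% did. Without the block, edgeR and DESeq2 called none lower in either line, where 7.39% of all tested genes fell in UACC62R and 0.39% in UACC62P, and at an unadjusted p under 0.05 there was 1 lower in UACC62R and 0 in UACC62P. The genes that rose in both lines numbered 14, which is 14 of the 28 in UACC62R and 14 of the 14 in UACC62P. When the replicate number entered as a block, 35 rose and 2, TRAM2 and GANAB, fell in UACC62R, and 21 rose and 0 fell in UACC62P. Without UACC62R 24 h replicate 2, 23 rose and 1, SRP9, fell. The count in UACC62R was 18 without either of its 6 h libraries and 6 with the left-out library in the fit. In UACC62P it was between 0 and 7 when 1 of the 4 libraries was left out, at 0 without 24 h replicate 1, and 0 with the left-out library in the fit. The 24 h group had the highest mean of the 4 times for 43 of the 53 genes in UACC62R and for 41 in UACC62P. In UACC62P the 2 h value is that of 1 library. The same count was not made over all tested genes, so no share stands beside it.

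The lines were also set against each other in their response. The log2 fold change at 24 h was larger in UACC62R for 38 of the 53 genes, beside 47.7% of all tested genes. The median difference of response was 0.11 for the 53 genes and -0.02 for all tested genes. Across the 53 genes the responses of the lines had a Pearson r of 0.871 and a Spearman rho of 0.858 (genes share libraries and are not independent). These correlations were not computed over all tested genes. For no gene did the difference of response pass the test at 24 h, where 0.562% of all tested genes were called by edgeR. At an unadjusted p under 0.05 it was passed by 7 genes, and DESeq2 called 1 gene, ALG1, at an adjusted p of 0.023. The largest differences were those of ALG1 (0.61 ± 0.16, edgeR adjusted p = 0.11), ALG5 (0.60 ± 0.17, edgeR adjusted p = 0.15) and SEC11C (0.52 ± 0.14, edgeR adjusted p = 0.12), each with the larger response in UACC62R. With the replicate number as a block these 3 genes were called, at adjusted p of 0.019, 0.017 and 0.019. At 6 h edgeR called none of the 53 genes, where 0.00493% of all tested genes were called, DESeq2 called none, and 2 had an unadjusted p under 0.05. The 11 genes called higher at 24 h in UACC62R alone are thus not shown to differ between the lines, apart from what is given here for ALG1.

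**Figure D3:**
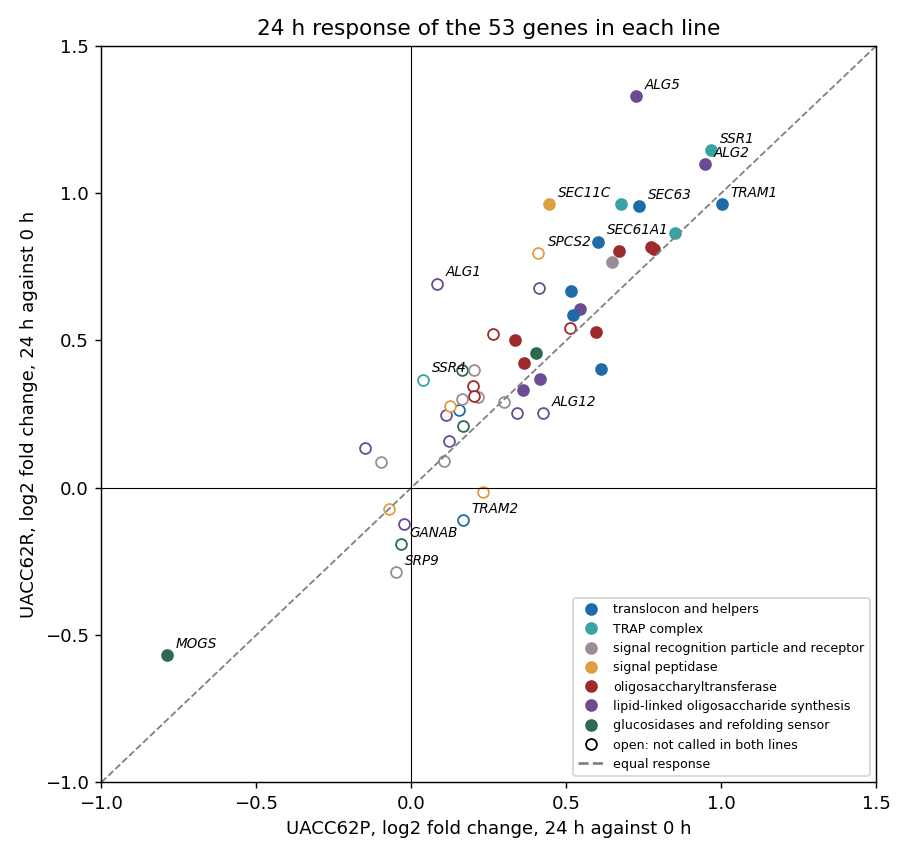
log2 fold change at 24 h against 0 h in UACC62R (vertical axis) and UACC62P (horizontal axis) for the 53 genes, coloured by role and filled where called in both lines, with a dashed line of equal response. Of the points, 38 lie above the dashed line, ALG5 and ALG1 among those furthest from it, and MOGS is the filled point below 0 in both lines.

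Before treatment the lines differed in 26 of the 53 genes, 14 higher and 12 lower in UACC62R, where 27.8% of all tested genes were higher and 26.1% lower. The share called was thus close to that over all genes, and the median log2 difference was 0.02 for the 53 genes and 0.02 for all. At 0 h the label texts have UACC62R kept in vemurafenib and name none for UACC62P. The line and exposure to vemurafenib therefore cannot be told apart in these differences. With library size as the only scaling the split was 18 higher and 9 lower and the median over all genes stood at 0.10, and with the left-out library in the fit it was 7 higher and 8 lower. The largest difference was that of TUSC3, an oxidoreductase subunit of the STT3B form of oligosaccharyltransferase. It had 218 and 239 CPM in UACC62R, against 97.3 and 99.4 CPM in UACC62P, a log2 difference of 1.22 ± 0.07 (edgeR adjusted p = 3.7e-09). STT3B itself had 270.2 and 302 CPM in UACC62R, against 149.5 and 146 CPM in UACC62P, a log2 difference of 0.95 ± 0.07 (edgeR adjusted p = 4.0e-08). For both genes the lowest UACC62R library lay far above the highest UACC62P library. Next came TRAM1 (0.65), SRP19 (0.54), SEC61G (0.46), UGGT2 (0.44), ALG12 (0.43), TRAM2 (0.41), SEC61A2 (0.41) and ALG3 (0.34).

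Lower in UACC62R were ALG6, which adds the first glucose to the donor, DAD1, MOGS and SEC11C. ALG6 had 10.2 and 13.4 CPM in UACC62R, against 22.4 and 27.0 CPM in UACC62P, a log2 difference of -1.07 ± 0.20 (edgeR adjusted p = 0.00035). DAD1, a small core subunit of oligosaccharyltransferase, had 105 and 85.0 CPM in UACC62R, against 168 and 151 CPM in UACC62P (-0.75 ± 0.12, edgeR adjusted p = 0.00012). The groups did not overlap for either gene. The log2 difference was -0.72 ± 0.08 for MOGS, -0.70 ± 0.10 for SEC11C, -0.57 for SRP54, -0.55 for SEC63, -0.54 for PRKCSH, -0.49 for UGGT1, -0.49 for ALG14 and -0.42 for ALG5. Calls that held in all 4 fits with 1 library left out numbered 16 of 26, and those on ALG14, ALG5, SPCS2, SRP72, SEC61A2, UGGT2, SPCS1, SEC11A, ALG2 and ALG8 were lost in at least 1. With the replicate number as a block, OSTC, DPM1 and GANAB were also called higher and SEC61A1, SSR4 and RPN1 lower in UACC62R.

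**Figure D4:**
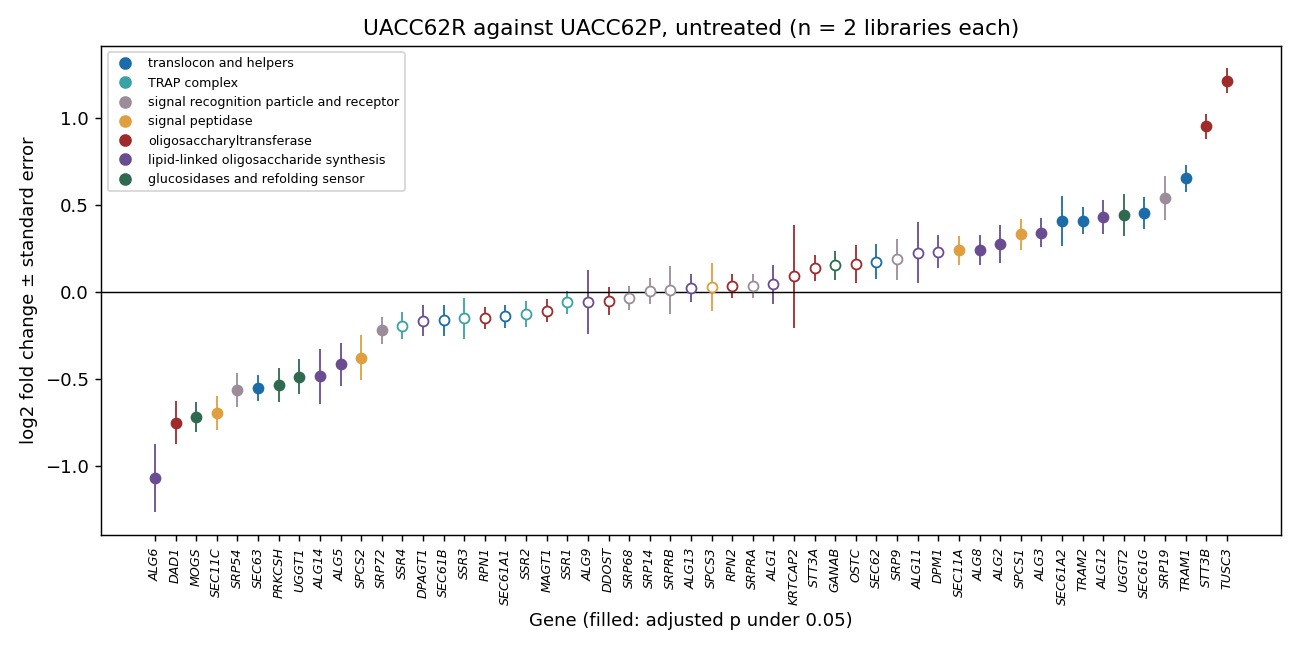
log2 difference between UACC62R and UACC62P at 0 h for each of the 53 genes (points, bars ± standard error, n = 2 libraries each), ordered from lowest to highest and coloured by role, filled where the adjusted p was under 0.05. ALG6 is at the low end, TUSC3 and STT3B at the high end, and 27 open points lie near 0.

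Several of these enzymes exist in alternative forms, and the ratio between forms was set side by side for the lines and times. Ratios were taken of CPM per kb of exon. STT3B, which glycosylates sites that STT3A skipped, stood at 1.42 ± 0.01 times the level of STT3A in untreated UACC62R and at 0.807 ± 0.018 times in untreated UACC62P (SD, n = 2 each). At 24 h the ratio was 1.16 ± 0.02 in UACC62R and 0.714 ± 0.011 in UACC62P. On this scale the order of the paralogues differed between the lines at both times. That order rests on the exon lengths used, 5012 bases for STT3B and 7393 for STT3A. Before division by length, STT3B lay below STT3A in UACC62R too, with means of 286 against 297 CPM at 0 h. At 24 h the UACC62R means were 412 against 523 CPM. TUSC3 stood at 1.22 ± 0.05 times its alternative MAGT1 in untreated UACC62R and at 0.487 ± 0.035 times in untreated UACC62P, and at 1.19 ± 0.01 and 0.488 ± 0.009 times at 24 h. In each line the ratio of TUSC3 to MAGT1 at 24 h differed from that at 0 h by less than the SD at 0 h.

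SEC11C, one of the alternative catalytic subunits of signal peptidase, stood at 0.486 ± 0.030 times SEC11A at 24 h, against 0.237 ± 0.021 at 0 h, in UACC62R, and at 0.647 ± 0.061 at 24 h, against 0.452 ± 0.011 at 0 h, in UACC62P. SEC11A itself had log2 fold changes of -0.07 in each line. TRAM2 stood at 0.317 ± 0.032 times TRAM1 at 24 h, against 0.669 ± 0.091 at 0 h, in UACC62R, and at 0.441 ± 0.033 against 0.787 ± 0.017 in UACC62P. UGGT2 stood at 0.241 ± 0.045 times UGGT1 in untreated UACC62R and at 0.126 ± 0.001 times in untreated UACC62P. SEC61A2 stood at 0.0134 ± 0.0003 times SEC61A1 in untreated UACC62R and at 0.00917 ± 0.00030 times in untreated UACC62P, so SEC61A1 made up nearly all the RNA for the pore subunit in both lines. These ratios were not tested as such.

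**Figure D5:**
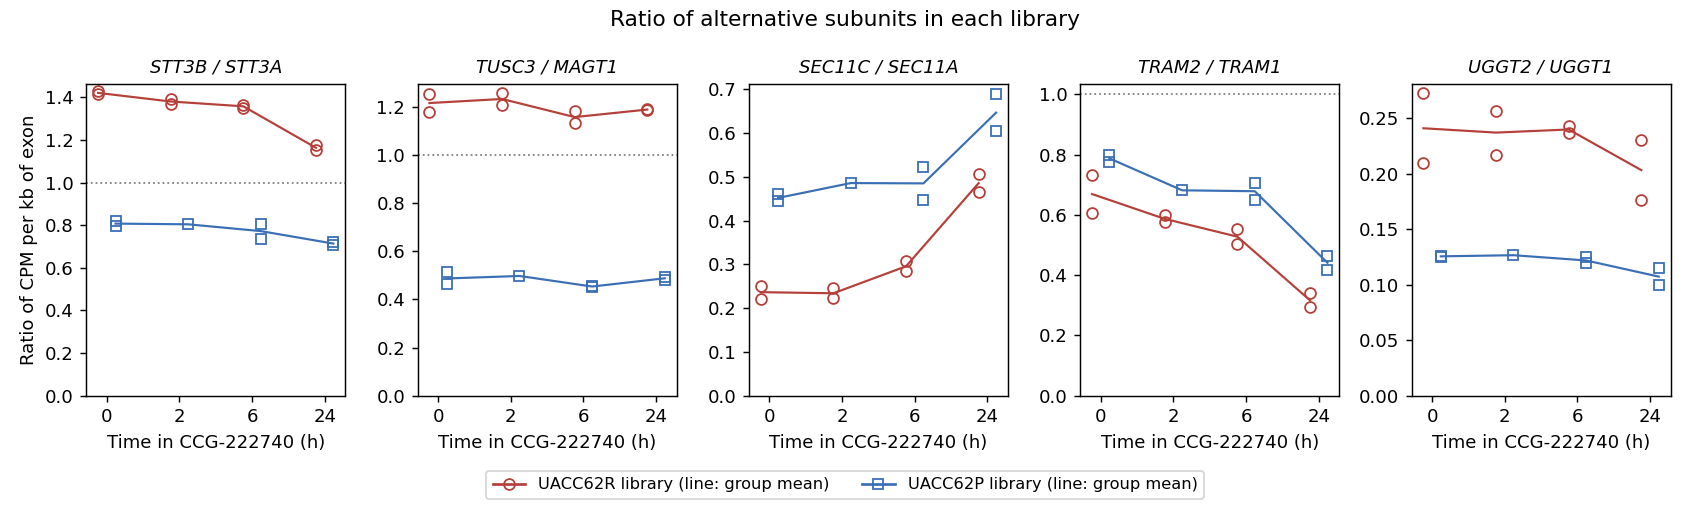
Ratio of CPM per kb of exon for 5 pairs of alternative subunits in each of the 15 libraries (circles UACC62R, squares UACC62P; lines through group means) against hours in CCG-222740 at equal distances, with a dotted line at equal levels where it falls in range. STT3B over STT3A and TUSC3 over MAGT1 lie above 1 in all UACC62R libraries and below 1 in all UACC62P libraries. For STT3B over STT3A the side of 1 in UACC62R rests on the exon lengths used. SEC11C over SEC11A is higher and TRAM2 over TRAM1 lower at 24 h than at 0 h in both lines.

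Mean levels over the 15 libraries ran from 2.93 CPM (KRTCAP2) through a median of 120 CPM to 1642 CPM (SEC61A1). Some values are uncertain. Exons of another gene overlap 24 of the 53 genes, over more than 20% of exonic bases for SPCS1, ALG11, ALG12, ALG9, ALG1 and DPAGT1. For ALG12 this share was 39.0% and the overlap included CRELD2 on the opposite strand, and whether the counting used strand is not stated. Pseudogenes named after them exist for 12 genes (SEC61G, SEC63, SSR1, SSR4, SRP9, SRP14, SRP68, SRP72, SPCS2, OSTC, KRTCAP2 and ALG3), whose reads may be split or dropped.

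Genes that work beside these 53 were counted from lists. Beside the counts at 24 h below, 6.48% of all tested genes rose and 8.23% fell in UACC62R. In UACC62P 2.19% rose and 1.65% fell. Of 21 other genes for the glycan donor, 7 rose and 2 fell at 24 h in UACC62R and 4 rose in UACC62P. SRD5A3, the polyprenol reductase that makes dolichol, had log2 fold changes of 0.57 and 0.65, and GMPPA, which regulates GDP-mannose synthesis, 0.58 and 0.42. DPM3, an anchor of dolichol-phosphate mannose synthase, rose (0.65) and UAP1, an enzyme of UDP-GlcNAc synthesis, fell (-0.56) in UACC62R. PGM3 and GFPT1, of the same route to UDP-GlcNAc, rose in both lines, by 0.49 and 0.54 in UACC62R and by 0.62 and 0.58 in UACC62P. Of the small oligosaccharyltransferase subunits OST4 and TMEM258, TMEM258 rose in UACC62R (0.52), and in UACC62P none was called.

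Of 23 other entry genes, 9 rose and 3 fell in UACC62R, and 4 rose and 2 fell in UACC62P. EMC3, a subunit of the ER membrane complex that inserts membrane proteins, rose in both lines (0.92 and 0.52), as did TMCO1 (0.73 and 0.42), a calcium channel of a multipass translocon, and TMEM208 (0.67 and 0.42). EMC7 rose by 0.59 in UACC62R and 0.32 in UACC62P, and EMC10 fell in UACC62P (-0.56). Of 21 genes for later trimming, folding and disposal, 5 rose and 1 fell in UACC62R, and 2 rose and 2 fell in UACC62P. Calnexin, CANX, which holds the glycoproteins that UGGT1 marks, rose in both lines (0.73 and 0.59), and EDEM2, which trims mannoses for disposal, rose (0.64 and 0.38). LMAN1, a cargo receptor for export to the Golgi, fell in both (-0.57 and -0.52). LMAN2 rose in UACC62R (0.50), and CALR, calreticulin, fell in UACC62P (-0.37).

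Of 20 genes of the unfolded protein response, 11 rose and 2 fell at 24 h in UACC62R, and 6 rose and 3 fell in UACC62P. The co-chaperone DNAJB9 rose in both lines (2.19 and 1.69), as did SYVN1, the ubiquitin ligase of ER-associated degradation (0.96 and 0.77). EIF2AK3, the stress sensor PERK, rose by 1.09 in UACC62R and 0.76 in UACC62P. The co-chaperone DNAJC3 fell in both (-0.85 and -0.81), as did PDIA4, a protein disulfide isomerase (-0.77 and -1.32). The medians of these lists at 24 h in UACC62R were 0.17 for the donor genes, 0.23 for the entry genes, 0.17 for the trimming genes and 0.42 for the unfolded protein response, beside 0.01 over all tested genes. In UACC62P they were 0.07, 0.09, 0.10 and 0.17, beside 0. At 0 h, 2 of the 20 unfolded protein response genes were higher and 11 lower in UACC62R than in UACC62P (median log2 difference -0.29). Over all tested genes 27.8% were higher and 26.1% lower. The difference of response at 24 h was called for 1 of the 20, beside 0.562% of all tested genes.

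Promoter sequences were read from RefSeq on GRCh38.p14, a build other than the hg19 of the counts, as 250 bases before to 50 after each gene's start. Entries existed for 46 of the 53 genes. They were searched on both strands for elements known from the unfolded protein response: the 8 letters TGACGTGG, which read CCACGTCA on the other strand and are known as the core of the element that XBP1 binds, the ER stress response element, which is CCAAT and CCACG set 9 bases apart, and a variant of it, ATTGG and CCACG set 1 base apart. The core of the first was found in SEC62, SRP19, SSR3 and SSR4, or 8.70% of the 46, beside 0.927% of all 27305 genes with a promoter entry. The second was found in ALG12 alone, or 2.17%, beside 0.0916% of all genes, and its variant in none, beside 0.0696%. The shorter letters ACGTG, which the first element contains, were found in 24 genes, or 52.2%, beside 24.9% of all genes. They were present in 13 of the 20 genes with an entry that rose at 24 h in both lines and in 11 of the 26 others. The metal response core TGCGCNC was found in 28.3%, beside 23.0% of all genes. The 5 windows with a match to the longer elements are shown because they hold these letters, 100 bases each on the strand of the gene, 5′ to 3′, with the match in capitals.
SSR3: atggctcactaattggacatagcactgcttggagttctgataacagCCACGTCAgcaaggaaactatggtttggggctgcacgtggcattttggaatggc
SEC62: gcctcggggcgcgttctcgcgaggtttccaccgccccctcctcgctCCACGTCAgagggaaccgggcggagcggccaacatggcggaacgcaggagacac
SSR4: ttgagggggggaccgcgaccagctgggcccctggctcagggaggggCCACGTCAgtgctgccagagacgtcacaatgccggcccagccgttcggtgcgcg
SRP19: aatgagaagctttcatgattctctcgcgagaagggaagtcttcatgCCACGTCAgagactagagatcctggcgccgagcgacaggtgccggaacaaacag
ALG12: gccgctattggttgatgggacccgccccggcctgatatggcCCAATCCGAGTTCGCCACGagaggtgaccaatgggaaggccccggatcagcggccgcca
The windows lie at chr3:156554113-156554212 on the minus strand, chr3:169966744-169966843 on the plus strand, chrX:153794493-153794592 on the plus strand, chr5:112861129-112861228 on the plus strand and chr22:49918514-49918613 on the minus strand. The matches begin 41, 17, 129, 112 and 134 bases before the start that the entry gives for SSR3, SEC62, SSR4, SRP19 and ALG12. SSR3 has 3 entries in the table and SSR4 has 2, each with its own start, and in both genes the match lies in 1 entry, which is not the one listed first. In both genes the match lies downstream of every other start listed for the gene, and which start these cells use was not tested. Of these genes, SSR3 and SEC62 rose at 24 h in both lines, SSR4 in UACC62R and ALG12 in UACC62P, and SRP19 in neither. A match is a description of the letters, not a measured binding site.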

How the data were processed

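RNA was sequenced from stranded mRNA libraries as single 50 bp reads, per the labels' protocols. Per the submitters' processing notes reads were handled with HISAT2 2.1.0 and HTSeq 0.6.1 on build hg19, beside Trimmomatic 0.33, FastQC 0.11.5 and bcl2fastq 2.19.0. The authors deposited raw read counts for 63677 Ensembl gene IDs per library, with 5 summary lines that stayed out of library sizes and tests. Unaligned reads made up 6.12 to 17.8% of a library and reads with several alignments, which were not counted, 18.6 to 22.0%. The strand setting of the counter is not stated. Symbols came from a table of names that held 52181 of the IDs, and all 53 genes matched. Exon lengths and overlaps came from GENCODE annotation of GRCh38, from which no coordinate was taken.

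Groups and replicate numbers came from the labels. The 15 libraries were fitted together, 1 coefficient per group, with TMM scaling, filterByExpr and edgeR's quasi-likelihood F test (R 4.3.3 with limma 3.58.1 and edgeR 4.0.16; 7 residual degrees of freedom), and p-values were Benjamini-Hochberg adjusted over 20280 genes. A gene was called at an adjusted p under 0.05. Standard errors were obtained as the ratio of each log2 fold change to the square root of F. The steps were tested on simulated data, with changes set in UACC62R at 24 h against 0 h. In these the libraries varied independently, without the shared deviation by replicate number given below. That test checks the steps and does not measure how reliable the calls reported here are. The 53 genes, the other lists and the tests were chosen with earlier results of these data known, and the left-out library was chosen from measured values. Genes were named by rule: up to 10 called each way per comparison by size of fold change, pairs of alternative subunits, and up to 4 called from each other list. Genes named beyond these, within their role or as calls lost or gained, were chosen after their values were seen.

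Other fits added the left-out library, used other scalings, no filter on low counts, DESeq2 1.42.0, the replicate number as a block, or the compared groups alone, or left out each library in turn. Libraries of the same number deviated together in all 21 pairs of groups (correlations of 0.17 to 0.72 across the 8273 genes whose log2 CPM averaged above 4), so the fit with the block is given where it changes a call. That pairing rests on the data, no label gives it, and the fit reported first has no block.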

Additional observations from a re-analysis of the deposited data

How the results depend on the processing

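Of 1516 values of called genes under other fits, 1208 kept their direction and call, 308 lost the call and 0 turned sign. With 16 libraries the members called numbered 15 (26 in the 15-library fit) between the lines at 0 h, 0 (1), 1 (4) and 18 (35) at 2, 6 and 24 h in UACC62R, 0 (1), 1 (4) and 6 (25) in UACC62P, and 6 (28) and 0 (14) at 24 h against 6 h in UACC62R and UACC62P; the higher dispersion of that fit is given above. With the replicate number as a block they numbered 2 at 2 h and 9 at 6 h in UACC62R, 16 at 6 h in UACC62P and 3 for the difference of response at 24 h; the block lost no call. Without a filter on low counts and with DESeq2 they numbered 7 and 7 at 6 h in UACC62P, and 2 and 1 for the difference of response at 24 h. With library size as the only scaling they numbered 2 at 6 h in UACC62R and 9 at 24 h against 6 h in UACC62P. With the compared groups alone they numbered 1 at 6 h in UACC62R and 18 at 24 h against 6 h in UACC62R. The cause was not tested.

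Leaving out 1 library gave 19 to 24 between the lines at 0 h, 0 to 1, 1 to 4 and 27 to 34 at 2, 6 and 24 h in UACC62R, 0 to 0, 2 to 4 and 15 to 19 in UACC62P, 18 to 24 and 0 to 7 at 24 h against 6 h, and 0 to 0 for differences of response at 6 and 24 h. The libraries that moved the 2 h, 6 h and 24 h counts are named above. At 24 h against 6 h in UACC62P the count was 2 without 6 h replicate 1, 7 without 6 h replicate 2, 0 without 24 h replicate 1 and 3 without 24 h replicate 2. Groups had 2 libraries each, and 1 at 2 h in UACC62P. The smallest change that these could show was not worked out. The simulated data covered 24 h against 0 h in UACC62R alone, without the shared deviation of libraries by replicate number, and do not give it.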

Other observations

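The library labelled UACC62P 2 h replicate 1, which entered no comparison here, can be set beside the others gene by gene, in CPM for which all 16 libraries were scaled together, so that values differ slightly from those above. Its level lay within the range of the UACC62R libraries alone for 18 of the 53 genes, within the range of the other UACC62P libraries alone for 4, and within both ranges for 14. The library was left out because it resembles UACC62R, so these positions describe it and are no separate support for that resemblance. The same counts were not made over all genes. TUSC3, STT3B and ALG6, given next, had the largest differences between the lines at 0 h. TUSC3 had 270 CPM in it, against 221 to 284 CPM in UACC62R and 96.7 to 114 CPM in UACC62P. STT3B had 344 CPM, against 274 to 418 CPM in UACC62R and 148 to 225 CPM in UACC62P. ALG6 had 15.1 CPM, against 10.3 to 16.9 CPM in UACC62R and 22.3 to 34.3 CPM in the other UACC62P libraries.

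For the other 17 genes the library lay outside the range of all 15 others. It was above them for SEC61G, SRP9, SPCS3, SEC11A and DPM1 and below them for 12. SEC61G had 264 CPM in it, against 119 to 162 CPM in UACC62R and 80.6 to 135 CPM in the other UACC62P libraries. SRP9 had 186 CPM, against 67.1 to 98.4 CPM in UACC62R and 74.5 to 88.4 CPM in the other UACC62P libraries. PRKCSH, at the low side, had 352 CPM, below the 485 to 675 CPM of UACC62R and the 658 to 826 CPM of UACC62P. The median log2 distance of the left-out library's 53 levels from the 0 h group means was 0.214 for UACC62R and 0.329 for UACC62P. From the 6 h means it was 0.219 for UACC62R and 0.348 for UACC62P. From the 24 h means it was 0.469 for UACC62R and 0.483 for UACC62P, which are close to each other. The distance of the other UACC62P 2 h library from the 0 h means was 0.179 for UACC62R and 0.0877 for UACC62P.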
